A study of Rattus norvegicus with 6 samples.

Results

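The insulin-like growth factors, their signalling receptor and their secreted binding proteins were followed in fetal rat lung epithelial cells that were stretched or left unstretched in culture. The group holds 10 genes, Igf1, Igf2, Igf1r and Igfbp1 to Igfbp7, and was gathered by gene symbol from the annotation of the array. All 10 were found, on 18 of the 15866 probe sets that were not controls; a probe set is the group of short probes that reports 1 transcript. The family was chosen on measured values in part, since it was taken up with strain results of these data already known, in particular that of Igfbp2, so the differences of its members between strained and control cells are descriptions and support nothing by themselves.

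Type II epithelial cells, the future makers of pulmonary surfactant, came from lungs of rat fetuses at embryonic day 19, and 5 of the 6 samples are labelled as CD rats of both sexes. Cultures in serum-free DMEM on silastic membranes with a collagen 1 coat were either held without strain for 16 h (control, n = 3) or strained for 16 h (n = 3). Each hour of strain held 15 min of 5% cyclic stretch at 60 cycles per min and 45 min of steady 2.5% distension, which was to imitate forces in the uterus. The cultures formed 3 litter pairs, 1 control and 1 strained culture each, with 1 array per culture. The labels name no transgene and no drug.

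Insulin-like growth factors are small hormones related to insulin that act through Igf1r, a tyrosine kinase receptor on the cell surface which feeds the PI3-kinase and Akt route and the MAP kinase route. In the extracellular space most of the growth factor is held by binding proteins, which prolong its life, limit its access to the receptor or, after cleavage by proteases, release it. In the fetus Igf2 is a main growth factor, and mice without the receptor die at birth with underdeveloped lungs.

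RefSeq promoter windows, from 250 bases before to 50 after an annotated start, were found for all 10 genes, 11 windows in all because Igf2 has 2. They are shown for the 3 genes with a probe set that was lower in strained cells in all 3 pairs. Capitals mark matches on either strand to any of 4 motifs, TATAAA (the TATA box), GGGCGG (the GC box of Sp1), CAAAACA (an element of the insulin response sequence of Igfbp1) and GGAATG (the core bound by TEAD factors). Sequences run 5′ to 3′ on the strand of the gene, build GRCr8. The Igfbp2 window is chr9:81864561-81864860 on the plus strand, the Igfbp5 window is chr9:81914138-81914437 on the minus strand, and the Igf2 windows are chr1:207253931-207254230 and chr1:207250426-207250725 on the minus strand.
Igfbp2: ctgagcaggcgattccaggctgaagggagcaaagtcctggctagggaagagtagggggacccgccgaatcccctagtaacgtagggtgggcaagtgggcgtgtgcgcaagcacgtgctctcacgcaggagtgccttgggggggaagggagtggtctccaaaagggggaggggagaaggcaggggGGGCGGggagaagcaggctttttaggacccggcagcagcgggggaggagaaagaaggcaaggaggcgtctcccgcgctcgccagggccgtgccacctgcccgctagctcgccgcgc
Igfbp5: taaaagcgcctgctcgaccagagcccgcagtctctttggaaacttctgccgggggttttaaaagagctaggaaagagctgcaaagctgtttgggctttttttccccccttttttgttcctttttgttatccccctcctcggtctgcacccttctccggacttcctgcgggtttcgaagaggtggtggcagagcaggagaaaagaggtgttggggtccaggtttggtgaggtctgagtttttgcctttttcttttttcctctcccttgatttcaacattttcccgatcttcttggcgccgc
Igf2, first window: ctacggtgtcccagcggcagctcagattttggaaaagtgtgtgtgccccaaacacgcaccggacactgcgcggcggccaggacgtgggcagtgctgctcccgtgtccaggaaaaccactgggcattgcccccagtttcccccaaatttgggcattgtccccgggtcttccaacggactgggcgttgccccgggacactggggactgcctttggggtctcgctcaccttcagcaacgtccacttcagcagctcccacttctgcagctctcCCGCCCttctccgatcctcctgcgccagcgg
Igf2, second window: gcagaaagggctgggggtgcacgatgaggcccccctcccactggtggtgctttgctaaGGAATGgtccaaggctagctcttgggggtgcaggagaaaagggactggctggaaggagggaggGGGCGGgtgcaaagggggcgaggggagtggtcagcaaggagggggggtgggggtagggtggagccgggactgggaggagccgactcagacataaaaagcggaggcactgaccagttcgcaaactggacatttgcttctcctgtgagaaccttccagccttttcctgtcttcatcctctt

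The Igfbp2 window held 1 GC box, 66 bases before the start, with 66.7% G and C and 20 CpG dinucleotides. Each Igf2 window also held 1 GC box, and the second held GGAATG 192 bases before the start. None of the 4 motifs occurred in the Igfbp5 window, whose G and C content was 50.7%. GGGCGG was present in 33.1% of all 33469 RefSeq windows of 300 bases, TATAAA in 14.2%, GGAATG in 14.2% and CAAAACA in 6.28%. Among the other members, Igfbp1 and Igf1 each held 1 CAAAACA, Igfbp4 held 1 TATAAA, Igfbp7 held 4 GC boxes and Igf1r held 1, while the Igfbp3 and Igfbp6 windows held no match. A match describes letters in the window and not a bound site. In the RefSeq gene order Igfbp2 and Igfbp5 are adjacent protein-coding genes on chromosome 9 that point toward each other, and Igfbp1 and Igfbp3 form a second such pair on chromosome 14.

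Signals are MAS5 values, a brightness per probe set on a linear scale, here scaled to a common trimmed mean of 500 on each array. Levels of different probe sets are not compared, since brightness depends on the probes. Differences are on the scale of log2(signal + 16), strained minus control within a pair, averaged over the pairs. They were fitted in limma over the 9519 probe sets left after the dimmest 40% were dropped. Brightness was the mean of log2(signal + 16), and the cut corresponds to a signal of about 116. Of the 18 member probe sets 9 were tested, and they covered 7 genes: Igf2, Igf1r, Igfbp2, Igfbp3, Igfbp4, Igfbp5 and Igfbp7. All probe sets of Igf1, Igfbp1 and Igfbp6 lay below the filter, as did 3 of 4 for Igf2 and 1 of 3 for Igfbp5.

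Among the 9 tested member probe sets 1 passed an adjusted p of 0.05 over all probe sets in limma, that of Igfbp2, and it was lower in strained cells. Over the whole array 31 of 9519 probe sets passed, or 0.326%, with 0.0525% lower and 0.273% higher. Because the family was chosen with that contrast known, nothing is read from this count. The median difference of the 9 was -0.12, against -0.018 for all tested probe sets. Of the 9, 3 were lower in all 3 pairs (Igf2, Igfbp2 and 1 probe set of Igfbp5), where 16.5% of all tested probe sets were. At an unadjusted p under 0.05 the members were 2, Igfbp2 and Igf2, against 9.44% of all tested probe sets. Igfbp4 was higher in all 3 pairs, as were 13.7% of all tested probe sets.

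**Figure D1:**
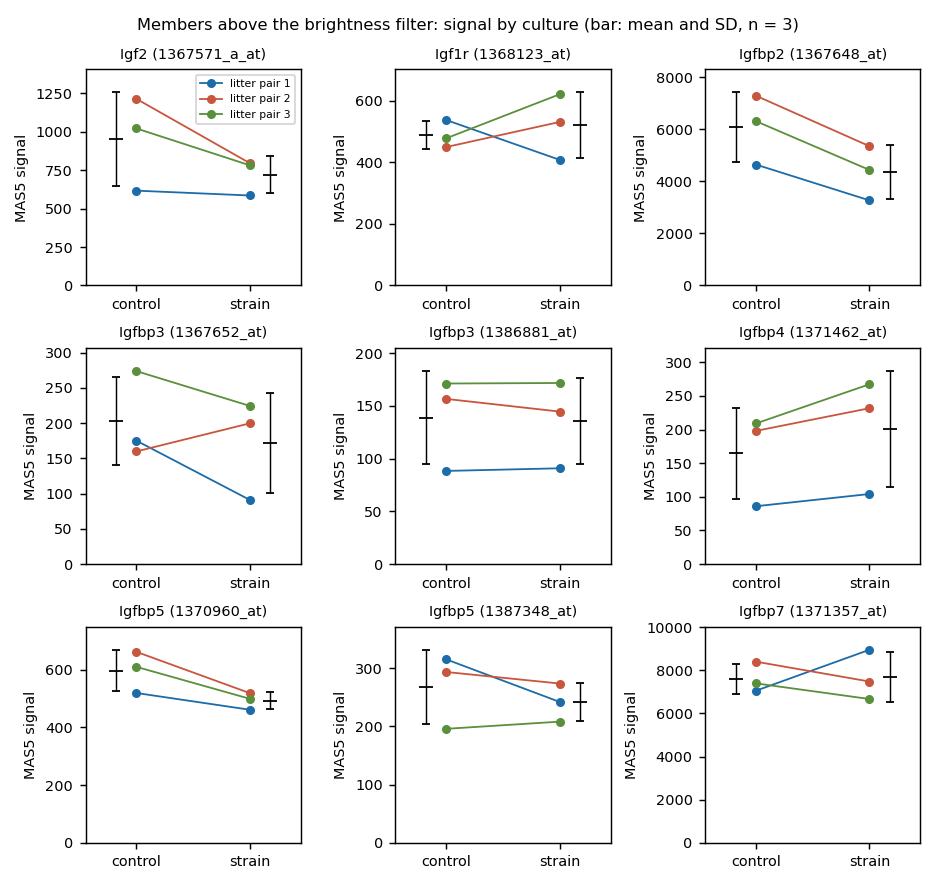
MAS5 signal (linear axis from 0) of the 9 tested member probe sets in control and strained cultures; lines join the cultures of 1 litter pair, and black bars give the mean and SD of 3 cultures. Igfbp2 goes down by a similar share in each pair, while Igf1r and Igfbp7 go opposite ways in pair 1 and in pairs 2 and 3.

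Igfbp2 encodes a binding protein that is abundant in fetal tissues and carries an integrin-binding RGD motif. Its only probe set, 1367648_at, read 4643, 7287 and 6309 in the controls of pairs 1, 2 and 3, a mean of 6080 ± 1337 (SD, n = 3). In the strained cultures it read 3271, 5353 and 4440, a mean of 4355 ± 1044 (n = 3). The groups overlapped, since the strained culture of pair 2 lay above the control of pair 1, but within each pair the strained culture was the lower. The changes were -29.6%, -26.5% and -29.6% in pairs 1, 2 and 3. Controls of different litters spanned 1.57-fold, against a mean of 1.40-fold for control over strained within a litter.

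The mean log2 difference of Igfbp2 was -0.48 ± 0.081 (SE, 3 pairs; limma adjusted p = 0.035, given as a description). This corresponds to 28.5% less signal on that scale, with a 95% interval from 19.1% to 36.8% less, and Igfbp2 stood at rank 26 of 9519 by p. The SD of the 3 pair differences was only 0.035, narrower than the SE, because limma draws the spread of a probe set toward that of others of like brightness. Without the pair term in the model Igfbp2 kept the same difference and was not called (adjusted p = 1.00), as the spread between litters then entered the error. With a variance that did not depend on intensity, or with no filter on dim probe sets, it was not called either, at adjusted p-values of 0.517 and 0.218. It was also not called without pair 2 (-0.50, adjusted p = 0.242) or without pair 3 (-0.47, adjusted p = 0.113). The arrays of pair 1 had a run day of their own, and those of pairs 2 and 3 shared the other. Within that second day, which is the fit without pair 1, the difference was -0.47 (limma adjusted p = 0.014). Pair 1 alone gave -0.50, with no test. Only 2 pair differences of Igfbp2 enter the error of that fit, and its p was the lowest of the 13 alternatives. It is therefore no separate check on run day. With run day in place of pair as the block Igfbp2 was not called (-0.48, limma adjusted p = 0.535).

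Igfbp5, the chromosomal neighbour of Igfbp2, encodes a binding protein that attaches to extracellular matrix. Its probe set 1370960_at read 520, 662 and 610 in the controls and 462, 519 and 499.7 in the strained cultures. All strained values lay below all control values, though narrowly, at a highest strained value of 519 and a lowest control value of 520. Such a separation of the groups was found in 1 of the 9 tested member probe sets and in 6.08% of all tested probe sets. The log2 difference was -0.26 ± 0.14 (95% interval from -0.56 to 0.036), and it did not pass. The second tested probe set of Igfbp5, 1387348_at, read 315, 294 and 196 in the controls and 242, 274 and 208 in the strained cultures. Its log2 difference was -0.12 ± 0.17, and pair 3 was at 0.081, against -0.28 on 1370960_at, so that the probe sets differed in direction there. Without pair 1 it was -0.0070, and without pair 3 it was -0.23. The remaining one, 1387347_at, stayed between 10.3 and 14.1 on all arrays, below the filter.

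Igf2 encodes the fetal growth factor itself. On its bright probe set, 1367571_a_at, the controls read 617, 1213 and 1021 and the strained cultures 585, 796 and 782. The strained value was the lower in each pair, with changes of -5.1%, -34.4% and -23.4% in pairs 1, 2 and 3, and the groups overlapped through the low control of pair 1. The log2 difference was -0.35 ± 0.14 (95% interval from -0.66 to -0.043) and did not pass the adjusted threshold. It was -0.49 without pair 1 and -0.23 without pair 2. The other 3 Igf2 probe sets had signals from 8.3 to 45.6 and differences from -0.084 to 0.25, so only 1 of 4 was above the filter.

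Igf1r encodes the receptor through which both growth factors signal. The controls read 537, 450 and 478 and the strained cultures 408, 531 and 621, so that strained cells were lower in pair 1 and higher in pairs 2 and 3. The mean log2 difference was 0.072 ± 0.17, with an interval from -0.30 to 0.44, and its sign turned without pair 2 (-0.0086) or without pair 3 (-0.076). The interval ran from 18.7% lower to 35.8% higher.

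Igfbp7, also called IGFBP-related protein 1, binds insulin-like growth factors weakly and is a matrix-associated protein. It read 7058, 8398 and 7392 in the controls and 8953, 7480 and 6669 in the strained cultures. Pair 1 was higher under strain by 0.34 on the log2 scale, and pairs 2 and 3 were at -0.17 and -0.15. The mean was 0.0092 ± 0.10, with an interval from -0.21 to 0.23, the narrowest interval of the tested member probe sets after that of Igfbp2. With quantile normalization its sign turned, to -0.040.

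Igfbp4, a binding protein known mainly as an inhibitor of growth factor action and as a substrate of the protease PAPP-A, read 86.1, 198 and 209 in the controls. The strained cultures read 104, 232 and 267, each above its own control, by 21.0%, 17.0% and 27.8%. The log2 difference was 0.26 ± 0.19, with an interval from -0.17 to 0.69, and it did not pass. The differences between litters were far larger, with pair 1 far below the others in both groups.

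Igfbp3, the main carrier in the circulation after birth, had 2 tested probe sets that did not match each other. On 1367652_at the controls read 175, 160 and 274 and the strained cultures 91.2, 199.6 and 224, with pair differences of -0.83, 0.29 and -0.27 on the log2 scale. Their mean was -0.27 ± 0.23, and without pair 1 it was 0.013. On 1386881_at the controls read 88.4, 157 and 171 and the strained cultures 90.9, 145 and 172, with a mean difference of -0.022 ± 0.22 that turned to 0.030 with quantile normalization. No direction can be given for Igfbp3.

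**Figure D2:**
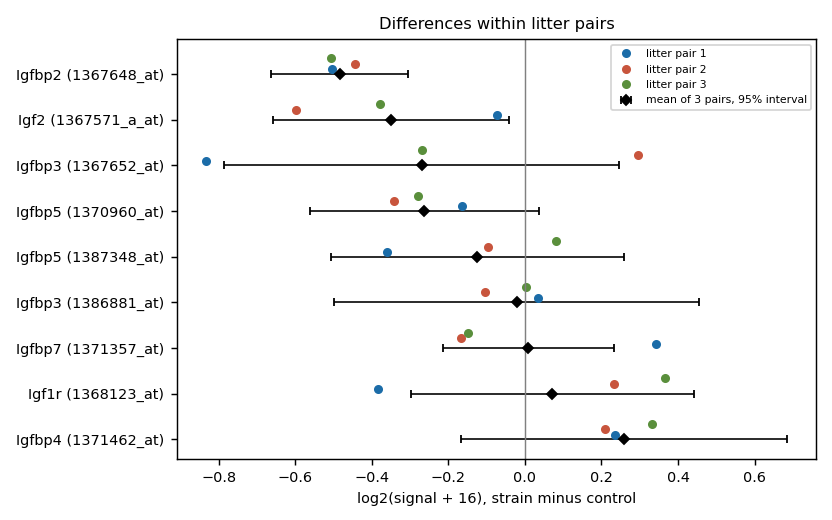
Difference of log2(signal + 16), strained minus control, for the 9 tested member probe sets; coloured points are the 3 litter pairs and black diamonds their mean with limma's 95% interval. The 3 pairs of Igfbp2 lie together near -0.48, and the pairs of Igfbp3 (1367652_at) spread from -0.83 to 0.29.

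The members that were below the filter were not tested, and without detection calls a low signal may be background. Igfbp1 encodes a binding protein that is switched on quickly by fasting, hypoxia and amino acid shortage in other tissues. Its controls read 25.2, 28.2 and 63.7 and its strained cultures 89.6, 83.7 and 57.8. Strained cells read higher in pairs 1 and 2 and lower in pair 3, and the groups overlapped. The mean log2 difference was 0.81, with an SD of 0.80 over the 3 pairs. It was 0.53 without pair 1, 1.27 without pair 3 and 0.47 with a pseudocount of 64, and when the filter was left out it did not pass (limma adjusted p = 0.680).

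Igfbp6, a binding protein with a preference for Igf2, had 2 dim probe sets. On 1372168_s_at, whose suffix marks probes that can also match related transcripts, the controls read 49.1, 39.4 and 31.6 and the strained cultures 69.6, 77.0 and 61.1. Here strained cells read higher in each pair and the groups did not overlap, with a mean difference of 0.61 and an SD of 0.19, which became 0.36 with a pseudocount of 64. On 1387625_at the controls read 25.1, 20.2 and 69.5 and the strained cultures 77.8, 68.7 and 12.2. Pair 3 ran opposite to the others there, at -1.60 against 1.19 and 1.23, and the mean of 0.27 became -0.19 without pair 1 and -0.20 without pair 2. With no filter neither passed, at adjusted p-values of 0.680 and 0.961.

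Igf1, the growth factor that mesenchymal cells supply in the lung, read 58.8, 76.9 and 151 in the controls and 80.9, 126 and 165 in the strained cultures on 1388469_at. The strained culture was the higher in each pair, but the controls alone spanned 2.57-fold between litters. The mean difference was 0.37 (SD 0.25, 3 pairs). Its other probe set stayed between 17.2 and 24.2 on all arrays.

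**Figure D3:**
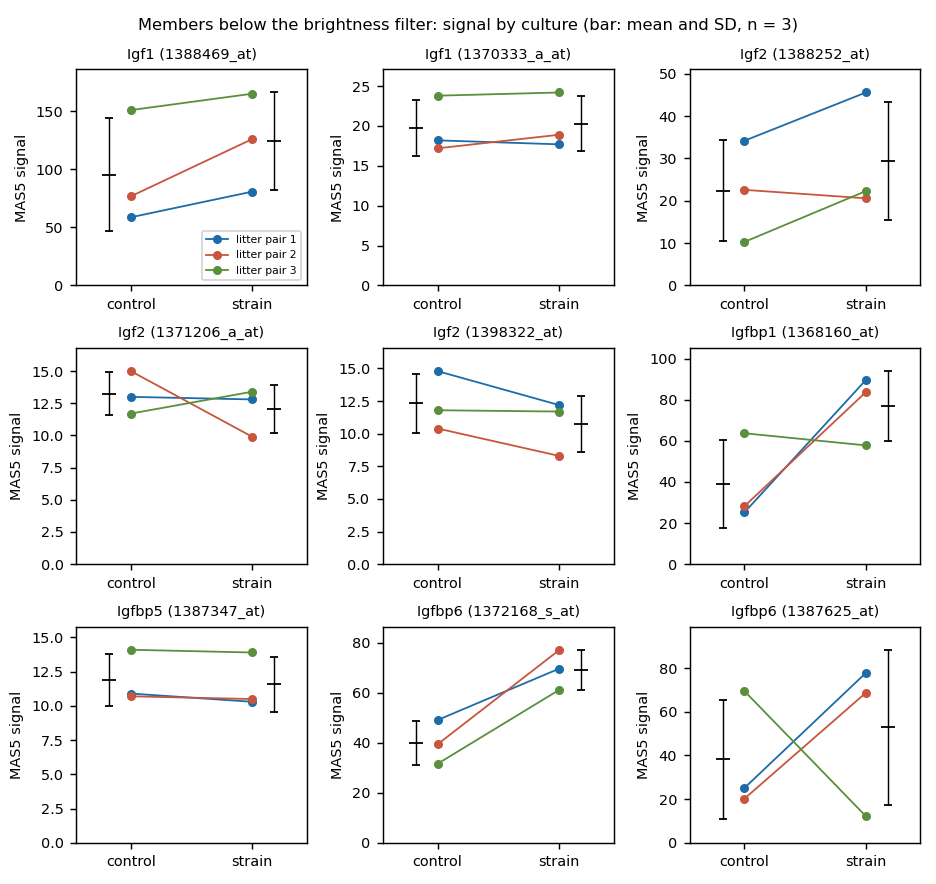
MAS5 signal (linear axis from 0) of the 9 member probe sets below the brightness filter, which were not tested; lines join the cultures of 1 litter pair, and black bars give the mean and SD of 3 cultures. Both probe sets of Igfbp6 and that of Igfbp1 read higher under strain in pairs 1 and 2, and in pair 3 only 1372168_s_at did.

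The litters differed in several members regardless of strain. In 5 of the 9 tested probe sets the cultures of pair 1 were the lowest of 3 in both groups, and the same held for 20.6% of all tested probe sets. The 5 belong to Igf2, Igfbp2, Igfbp3 (1386881_at), Igfbp4 and Igfbp5 (1370960_at). The contrast was widest for Igfbp4, whose pairs 2 and 3 read 2.30 and 2.43 times pair 1 among controls and 2.22 and 2.57 times among strained cultures. For Igfbp2 the same ratios were 1.57 and 1.36 among controls and 1.64 and 1.36 among strained cultures. Pair 1 was also the only pair of its run day, so litter and run day cannot be told apart. Pair 3 was the only pair of its chip lot and ran on fluidics modules 3 and 4, which the others did not use. What sets pair 3 apart can thus be its litter, lot or modules, which cannot be told apart either.

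Across the 6 arrays the log2 signal of Igfbp2 went with that of Igfbp5 (1370960_at) at r = 0.95 and of Igf2 at r = 0.92. Of the other tested probe sets, 0.326% were at least as close to Igfbp2 as this Igfbp5 probe set was, and 1.01% were at least as close as Igf2. These 6 values hold the litter levels and also the strain contrast, in which Igfbp2, Igf2 and this Igfbp5 probe set were lower in all 3 pairs. The values of r do not separate litter from strain. The differences between strained and control culture were nearly equal for Igfbp2, at -0.50, -0.44 and -0.51 in pairs 1, 2 and 3. Their SD of 0.035 was below limma's SE of 0.081. Those of Igf2 (-0.60) and Igfbp5 (-0.34) were the most negative in pair 2. The order of such close values cannot show whether Igfbp2 went with them. The second Igfbp5 probe set stood at r = 0.10 and Igf1r at 0.041. The genes with the highest values were Prrc2b at r = 0.993, Tcf4 at 0.991 and Sema3b at 0.991. These values describe 6 arrays in 3 pairs that share litter and run day, and the top genes were picked as the highest of all tested. Like Igfbp2, these top genes were lower under strain in all 3 pairs. Prrc2b read 1309, 1884 and 1643 in the controls and 946, 1394 and 1291 in the strained cultures. Its log2 difference was -0.41 ± 0.11 and did not pass (limma adjusted p = 0.235), nor did those of Tcf4, a transcription factor (-0.25 ± 0.16), or Sema3b, a semaphorin (-0.32 ± 0.18).

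Other genes of the pathway were taken from lists by function, 81 genes in all, of which 63 were on the array and 46 were tested, each by its brightest probe set. None of the 46 passed in limma, where 0.349% of all 7163 tested genes did. At an unadjusted p under 0.05 there were 4 higher and 4 lower, against 9.56% of all tested genes. The median difference was -0.058 over the 46 and -0.014 over all genes. The groups did not overlap for 6 of the 46, against 6.18% of all genes.

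The list of imprinted genes and RNA-binding regulators held the smallest p of the pathway. Of its 9 genes 5 were on the array and tested, all of them imprinted genes and none an RNA-binding regulator. Their median was 0.038, with 3 higher and 2 lower on average. H19, an imprinted noncoding RNA that shares enhancers with Igf2 and has no RefSeq gene between itself and Igf2, read 392, 715 and 463 in the controls. In the strained cultures it read 239, 308 and 357, lower in each pair and below all controls. Its log2 difference was -0.74 ± 0.18 and did not pass (limma adjusted p = 0.159). Igf2 and H19 were thus both lower in each pair, without either passing. In pairs 1, 2 and 3 Igf2 was at -0.073, -0.60 and -0.38, and H19 was at -0.68, -1.17 and -0.36. Both differed most in pair 2, but Igf2 differed least in pair 1 and H19 in pair 3. Plagl1, an imprinted zinc finger gene, read 3844, 3660 and 3873 in the controls and 3195, 3096 and 3302 in the strained cultures, a difference of -0.25 ± 0.089 (adjusted p = 0.391). Mest, which is expressed from the paternal allele, read 151, 128 and 150.5 in the controls and 289, 188 and 211 in the strained cultures, at 0.61 ± 0.20 (adjusted p = 0.335). The groups did not overlap for either. Cdkn1c, an imprinted inhibitor of the cell cycle, was at 0.18 ± 0.13.

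Of the 6 tested genes that share the binding protein domain without being classical members, Ccn1, a matrix protein of the CCN family, was the highest. It read 803, 289 and 708 in the controls and 975, 473 and 994 in the strained cultures, higher in each pair although the groups overlapped (0.48 ± 0.14, adjusted p = 0.271). Its relative Ccn2 was at -0.051 ± 0.061. Ccn3, Htra3 and Ccn4 were each at 0.20, with SEs of 0.18, 0.19 and 0.20, and Ccn4 was lower in pair 3 (-0.43) and higher, at 0.46 and 0.57, in pairs 1 and 2. Htra3 had a dimmer tested probe set at -0.069 ± 0.20. The list median was 0.20.

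Proteases and partners of the binding proteins, 9 tested genes, had a median of -0.072. Ctsd, the lysosomal protease cathepsin D, read 5682, 5861 and 6262 in the controls and 6286, 7961 and 6826 in the strained cultures, above all controls (0.24 ± 0.088, adjusted p = 0.405). Mmp2, Stc1 and Mmp14 were at -0.22 ± 0.14, -0.29 ± 0.21 and -0.097 ± 0.076. A dimmer tested probe set of Mmp2 had the other sign, at 0.14 ± 0.20. Stc1 encodes stanniocalcin, an inhibitor of PAPP-A proteases. Below the filter and not tested, another Stc1 probe set was at 0.28, lower only in pair 2. Stc2, also untested, was at 0.92 and higher in all 3 pairs.

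Among 7 tested adaptors the median was -0.086. Socs3, a feedback inhibitor of cytokine and insulin receptors, read 255, 224 and 184 in the controls and 172, 139 and 146 in the strained cultures. It was at -0.49 ± 0.19 (adjusted p = 0.444), and the linker Grb2 was at -0.24 ± 0.11 (adjusted p = 0.557), each with groups that did not overlap. On a dimmer tested probe set of Grb2 the groups overlapped, at -0.14 ± 0.13. Grb10, an imprinted inhibitor of the insulin and Igf1 receptors, was at -0.086 ± 0.090, and Sos1 was at -0.12 ± 0.14.

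The 17 tested kinases and effectors had a median of -0.085. Foxo3, a transcription factor that Akt holds out of the nucleus, was at -0.30 ± 0.12 (adjusted p = 0.475), and Gsk3b, a kinase inhibited by Akt, was at 0.36 ± 0.16 (adjusted p = 0.516). Both kept 1 direction in all 3 pairs. Pik3r3, a regulatory subunit of PI3-kinase, was at -0.49 ± 0.29, and Pdpk1, which activates Akt, at -0.24 ± 0.15. Of the other receptors and insulin family genes, Igf2r, which clears Igf2 to the lysosome, was at -0.13 ± 0.11, Insr at -0.048 ± 0.22 and Ins1 at 0.12 ± 0.16.

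**Figure D4:**
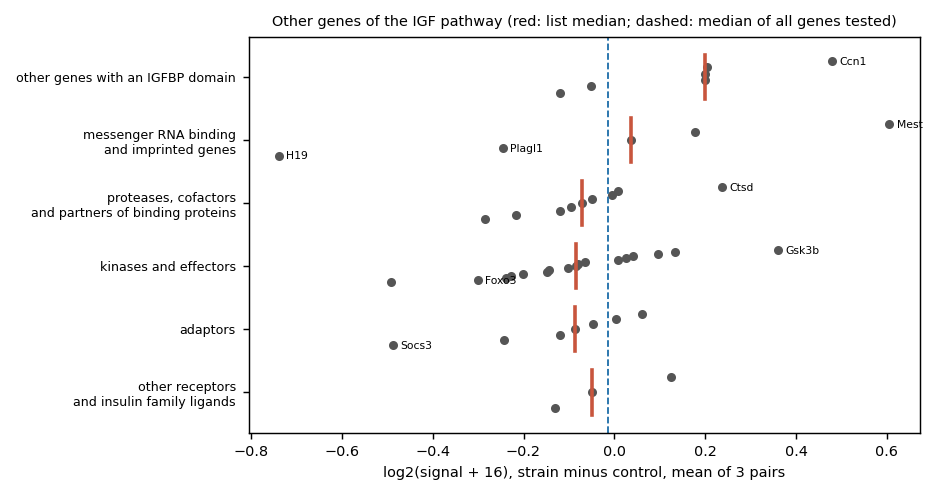
Mean log2 difference, strained minus control, of the 46 tested pathway genes, a point each (Htra1 is in 2 lists); red bars are list medians and the dashed line is the median of all tested genes. Genes with an unadjusted p under 0.05 are named, and none passed after adjustment over all probe sets.

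In these whole cultures a lower signal from fewer cells of a type and from less RNA per cell cannot be told apart. The general epithelial markers summed to 54455 to 58430 in controls and 54497 to 60972 in strained cultures, and all 8 were above the filter. Of 9 measured type II markers 7 were above the filter, and their sum had ratios of 0.98, 0.93 and 0.94 in pairs 1 to 3. Nkx2-1 and Muc1 were the brightest of these, and single markers differed in direction. Sftpc, a surfactant protein, stood at 1232 ± 124 (SD, n = 3) in controls and 1871 ± 475 in strained cultures, higher in all 3 pairs with no overlap (log2 difference 0.57 ± 0.12, limma adjusted p = 0.120). Slc34a2, a phosphate transporter, was lower in all 3 pairs (-0.77 ± 0.20, adjusted p = 0.221), and Muc1, a mucin, was lower with no overlap (-0.30 ± 0.091, adjusted p = 0.289). None of the 7 passed. In controls Sftpa1 stood at 101 ± 13.5, below the filter. Scgb1a1, the marker of club cells of the airway, was also well above the filter, at 13177 ± 1153. Pecam1 and Ptprc, which define endothelium and leukocytes, read 26.0 and 25.6 on average in controls, below the filter. Other markers on their lists were above it, 7 of 9 for leukocytes and 1 of 7 for endothelium. Lyz2, the brightest gene on the leukocyte list, stood at 1193 ± 337 in controls. Whether leukocytes or other cells gave its signal was not tested.

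Markers of some other cells went the same way as Igfbp2. The 9 smooth muscle markers summed to 21236 to 25557 in controls and 15670 to 23443 in strained cultures, with ratios of 0.74, 0.92 and 0.91 in pairs 1 to 3. All 8 that were tested were lower on average, none passed, and Acta2 came closest, at -0.66 ± 0.12 (limma adjusted p = 0.051). The 9 leukocyte markers summed to 2463 to 3084 in controls and 1791 to 3173 in strained cultures, with ratios of 0.73, 0.71 and 1.03. Lyz2, whose cell source was not tested, was the brightest gene in this sum (-0.41 ± 0.13, limma adjusted p = 0.347). The 10 fibroblast markers, cells known to make growth factors and binding proteins of this family, summed to 6341 to 7682 and 6276 to 7297, with ratios of 0.99, 0.95 and 1.05. More than any other gene, Col1a1, a chain of type I collagen at 3872 in controls, set this sum, and the 4 tested fibroblast markers were split. Col1a2, the other chain of type I collagen, was lower in all 3 pairs, with changes of -51.6%, -30.0% and -19.8% (log2 difference -0.61 ± 0.15, limma adjusted p = 0.173), and so was Col3a1 (-0.32 ± 0.15, adjusted p = 0.555). Col1a1 (0.18 ± 0.089) and Fbln1 (0.24 ± 0.17) were higher in all 3 pairs, and none of the 4 passed. Airway markers had ratios of 1.02, 1.05 and 1.07, mesothelial markers 1.01, 0.75 and 1.36, and endothelial markers, 1 of 7 above the filter, 0.76, 0.96 and 1.43. Scgb1a1 made up most of the airway sum, at a log2 difference of 0.072 ± 0.063. The other tested airway markers, Foxj1 (-0.17 ± 0.19) and Calca (-0.27 ± 0.26), were lower on average. Of 6 listed red blood cell markers 2 were measured. Hbb changed by -80.5%, -71.7% and 18.2% in pairs 1 to 3 (log2 difference -1.13 ± 0.35, adjusted p = 0.308). Alas2 went the other way in each pair, but at signals from 9.8 to 117, below the filter, it may be background. Probe sets with several symbols or none are in no marker list. Every called probe set of this kind was lower, at -1.59, -1.05 and -0.87 (limma adjusted p = 0.0040, 0.014 and 0.039). Which genes or cells they report was not tested. Igfbp2 was at 0.70, 0.73 and 0.70 of its control. The part of these cells in the result for Igfbp2 was not tested.

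**Figure D5:**
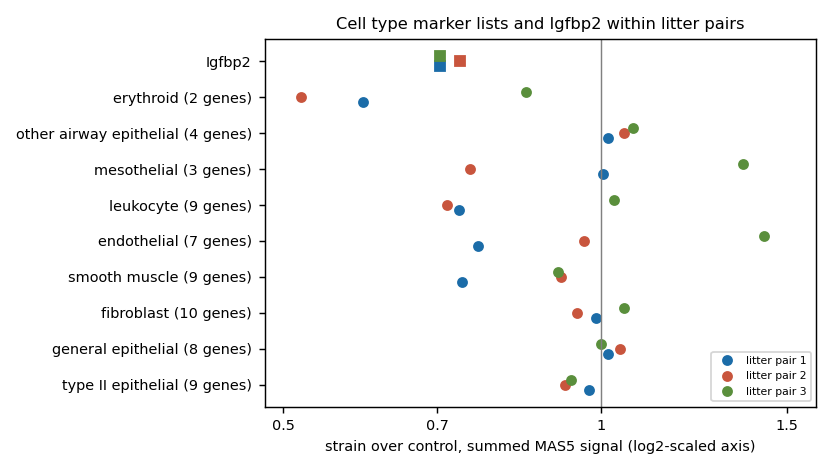
Strained over control ratio within each litter pair (log2-scaled axis) of the summed MAS5 signal of each cell type marker list, and of Igfbp2 (squares). A sum follows the brightest genes of its list, and members of a list can go opposite ways, as Col1a1 and Col1a2 or Hbb and Alas2 (below the filter) do. The general epithelial and fibroblast lists stay between 0.95 and 1.05, smooth muscle lies below 1 in each pair, and leukocyte markers lie below 1 in pairs 1 and 2 but not in pair 3.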

How the data were processed

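Total RNA of 6 cultures was labelled with biotin and hybridised to 6 rat E230A arrays. The deposited values are linear intensities, 1 for each probe set, and the submitters' processing notes name MAS5 version 5.0. The authors had already scaled the arrays, with 2% trimmed means between 500.129 and 500.148, and arrays had median signals from 161.7 to 199.0. Probe-level files and detection calls were not used here. The labels state a column clean-up of the RNA, while the run notes of all 6 arrays say that no such column was used. Per the same notes, controls ran on fluidics modules 1 and 3 and strained samples on modules 2 and 4, always after their controls. Strain therefore cannot be told apart from module or run order, and a fit with the module as a random block does not separate them.

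Signals were rescaled to a trimmed mean of 500, log2(signal + 16) was taken, 57 control probe sets and the dimmest 40% were dropped, and the rest were fitted in limma 3.58.1 (R 4.3.3) with litter pair and group as terms and a variance trend on intensity. P-values were adjusted by Benjamini-Hochberg over all 9519 probe sets. SEs rest at 9.00 of 11.0 degrees of freedom on other probe sets. The series' design text gives each pair a different litter, and the pair is the number in the sample titles. Deviations from group means correlated at 0.51, 0.47 and 0.44 for same-numbered arrays and between -0.35 and -0.12 otherwise. Such deviations cancel within a group, so positive values for same-numbered arrays push the others to be negative. Same-numbered arrays also share run day and chip lot, so these values do not single out the litter. Nothing else states how far cultures were separate, and precision is limited by the number of arrays.

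Symbols came from the platform annotation. Of 15866 probe sets 12783 had 1 symbol, 312 several and 2771 none, and 12748 were found in RefSeq by gene ID. The members and lists were chosen with earlier results of these data known. Named genes are all members, pathway genes that passed or had the 4 smallest p-values of a list, markers, and the 3 genes closest to Igfbp2 over the arrays. Ccn2 falls outside this rule and was named after its values were seen. Alternatives changed scaling, pseudocount, filter, variance trend, block and pairs used. Scripts were tested on simulated data.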

Additional observations from a re-analysis of the deposited data

How the results depend on the processing

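Igfbp2 was lower in strained cells under all 13 alternatives, from -0.49 to -0.48 with all pairs and from -0.50 to -0.47 without a pair. It was called in 5 of them and not in 8, with adjusted p-values from 0.014 to 1.00. The members called were thus 1 with quantile normalization, signals as deposited, a pseudocount of 1 or 64, and 0 with no filter, with the dimmest 20% dropped (adjusted p = 0.057), with no trend, with no replicate block, with run day as block, or with the fluidics module as a random block, which was chosen after seeing the data. Without replicate 1, 2 or 3 they ranged from 0 to 1. Over the whole array the 31 calls became 5 with no filter, 1 with no trend, 0 with no replicate block (200 at an unadjusted p under 0.05), 1 with run day as block and 0 with the module block (212 at an unadjusted p under 0.05), and ranged from 9 to 52 without a pair. The count of pathway genes called was 0 under each alternative, also by probe set. Signs turned for Igfbp7 (-0.040) and Igfbp3 1386881_at (0.030) with quantile normalization. Without a pair Igfbp3 ranged from -0.55 to 0.013 on 1367652_at and from -0.050 to 0.019 on 1386881_at, Igfbp7 from -0.16 to 0.10 and Igf1r from -0.076 to 0.30. The tested Igf2, Igfbp4 and Igfbp5 probe sets kept their sign under all 13, at -0.0070 without pair 1 for Igfbp5 1387348_at. With no replicate block or with the module block no pair term was fitted, so the error holds the litters. The run day block takes pairs 2 and 3 together, so the error holds the difference between their litters. More probe sets are adjusted over with no filter (15866) or with the dimmest 20% dropped (12692). The cause of the other losses was not tested. With detection calls not used, the 9 dim member probe sets have no stated distance from background.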
